A study of Mus musculus with 6 samples.

Results

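The collagen chain genes are the genes whose symbol is Col, a number, the letter a and a second number, each of which encodes 1 chain of a collagen. The annotation of the count tables held 44 of them among 32285 genes, and all 44 had at least 34 unique molecular identifiers (UMIs, counted molecules) in total. They were followed in single-nucleus RNA-seq libraries of the frontal lobe from 6 mice, 3 labelled SwDI/TKO and 3 labelled SwDI/TWT. All 6 carried Tg-SwDI, a transgene that drives mutant human amyloid precursor protein from a neuronal Thy1 promoter, so no group lacked amyloid. SwDI/TKO mice were Trem2 knockouts on that background and SwDI/TWT mice had wild-type Trem2, a receptor of microglia. The Trem2 allele, the age and the sex of the mice were not given in the sources used here. Values of a genotype are given in the order of replicates 1, 2 and 3, which are numbers in accession order only. The p-values of the genotype comparisons measure the spread between these mice. In the comparisons of classes and of neuron types each mouse gave several sums and was a block. Those p-values measure the spread of the sums left after the level of each mouse is taken out, not the spread between mice.

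Collagens are extracellular proteins of 3 intertwined chains, and the chains differ in what they build. Fibrillar chains such as those of types I, III, V and XI form fibrils. Type IV chains form the network of basement membranes around vessels, with the Col4a1 and Col4a2 chains present in nearly all of them and the Col4a5 and Col4a6 chains in fewer. Type VI chains form beaded microfilaments, FACIT chains (fibril-associated collagens with interrupted triple helices) decorate fibrils, and transmembrane collagens stay anchored in the cell that makes them. In brain, fibroblasts of the meninges and large vessels are the known source of fibrillar collagen and mural and endothelial cells of vascular basement membrane, while some neurons make collagens that act at synapses or in axon growth. The shed ectodomain of the transmembrane chain Col25a1 is known from amyloid plaques, and the Col18a1 chain, a basement membrane collagen and the precursor of endostatin, is known from amyloid-laden vessels.

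The genes of type IV chains lie in head-to-head pairs, in which both genes start close together and run in opposite directions. The start sites of Col4a1 and Col4a2 on chromosome 8 were 21 bases apart in GENCODE M21, and their annotated transcripts overlapped by 22 bases. The start sites of Col4a6 and Col4a5 on chromosome X were 1309 bases apart, and those of Col4a4 and Col4a3 on chromosome 1 were 72 bases apart. The start regions of Col4a1, Col4a2, Col4a5 and Col4a6 are shown because these are the type IV chains that passed the filter on low counts. Each window covers 250 bases before and 50 after the start, from RefSeq (GRCm38.p6), at chr8:11312777-11313076 (minus strand, Col4a1), chr8:11312555-11312854 (plus strand, Col4a2), chrX:141475169-141475468 (plus strand, Col4a5) and chrX:141474027-141474326 (minus strand, Col4a6). Capitals mark matches to GGGCGG, the core of a GC box, and to CCAAT, on either strand, and no 2 matches overlapped.
Col4a1: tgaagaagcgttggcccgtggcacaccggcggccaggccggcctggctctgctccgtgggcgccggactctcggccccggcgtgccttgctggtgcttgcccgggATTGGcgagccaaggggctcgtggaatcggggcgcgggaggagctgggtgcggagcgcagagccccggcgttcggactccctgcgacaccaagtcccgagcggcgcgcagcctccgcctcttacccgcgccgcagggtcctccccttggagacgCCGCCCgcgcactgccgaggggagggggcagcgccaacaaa
Col4a2: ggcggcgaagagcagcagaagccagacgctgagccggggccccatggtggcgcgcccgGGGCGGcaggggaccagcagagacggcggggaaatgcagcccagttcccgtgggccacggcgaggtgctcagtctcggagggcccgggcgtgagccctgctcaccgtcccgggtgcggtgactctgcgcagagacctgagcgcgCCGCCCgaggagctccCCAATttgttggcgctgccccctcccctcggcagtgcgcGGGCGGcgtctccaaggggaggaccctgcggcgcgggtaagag
Col4a5: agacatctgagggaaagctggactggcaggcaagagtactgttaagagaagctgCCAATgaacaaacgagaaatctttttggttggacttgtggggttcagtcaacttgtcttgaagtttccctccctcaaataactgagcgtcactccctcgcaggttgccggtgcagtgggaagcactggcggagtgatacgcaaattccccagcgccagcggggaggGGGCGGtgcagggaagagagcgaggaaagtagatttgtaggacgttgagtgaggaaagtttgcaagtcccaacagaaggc
Col4a6: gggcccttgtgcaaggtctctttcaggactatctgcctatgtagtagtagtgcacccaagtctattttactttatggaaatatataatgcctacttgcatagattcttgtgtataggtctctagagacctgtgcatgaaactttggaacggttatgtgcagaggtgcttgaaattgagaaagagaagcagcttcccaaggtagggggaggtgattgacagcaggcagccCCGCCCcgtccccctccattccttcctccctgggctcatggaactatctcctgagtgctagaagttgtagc
The Col4a1 and Col4a2 windows shared 78 bases. The GC box core was found 3 times in the Col4a2 window and 1 time in each of the other windows. The CCAAT motif was found 1 time each in the Col4a1, Col4a2 and Col4a5 windows and not in the Col4a6 window. The motif TATAAA was in none of these 4 windows. Of all 32851 windows of 300 bases, 35.7% held the GC box core, 37.4% the second motif and 13.6% the third. Bases G and C made up 74% of the Col4a1 window and 73.7% of the Col4a2 window, against 52.7% in the Col4a5 window, 48.3% in the Col4a6 window and a median of 52.7% over all windows.

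The count tables listed 39752 barcodes, 5220 to 8095 per library, where the submitters stated 5700 to 8100 nuclei per sample. After removing barcodes with under 200 genes or over 5% mitochondrial UMIs and 1273 predicted doublets, 33008 nuclei remained, 7460, 4589 and 4427 in SwDI/TKO mice and 5166, 5543 and 5823 in SwDI/TWT mice. Any pair of libraries shared 5 to 14 barcodes. SwDI/TKO replicate 1 stood apart from the other 5 libraries. It was counted with Cell Ranger 7.0.0 rather than 6.1.2, held 51317961 UMIs against 11493087 to 17835287, and had a median of 5310 UMIs per nucleus against 1445 to 2465. Levels are in CPM, the UMIs of a gene scaled to 1000000 UMIs of the same class and library. In microglia, the Trem2 level was 229.8, 667.6 and 428.2 CPM in SwDI/TKO mice, and 1591, 1385 and 812.7 CPM in SwDI/TWT mice. Every SwDI/TKO library was below every SwDI/TWT library, but Trem2 reads were present in all 3. Which part of the gene the allele removes was not given in the sources used here.

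The difference between SwDI/TKO replicate 1 and the other libraries varied with the intron sequence of the collagen chain genes. Its level over the mean of the other 5 libraries had a median of 0.463 over the 13 members with the least intron sequence, 0.759 over the 12 in the middle and 1.42 over the 13 with the most, counting the members with at least 100 UMIs. Col4a6, with 300701 intron bases, stood 8.44 times higher in that library, Col25a1, with 455430, 3.06 times and Col19a1, with 318696, 3.65 times. The Col6a1 level, with 12997 intron bases, was 0.213 times that of the others. Of the 13 members with the most intron sequence 9 were above 1, and among the rest Col24a1, with 251919 intron bases, was at 0.334 and Col11a1, with 177435, at 0.368. Where a call of a named gene or a count of calls changed without this library, that is given beside it, and the part of the counting version in them cannot be told apart from that of the mouse.

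**Figure D1:**
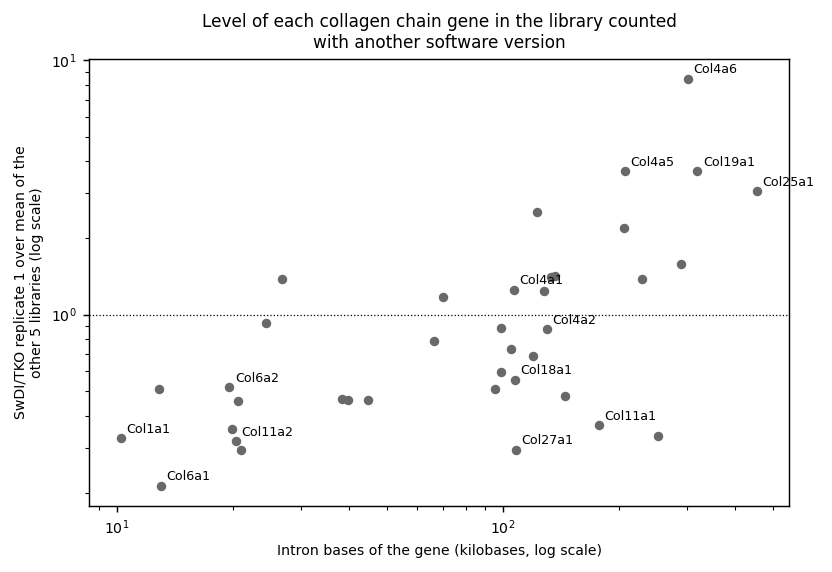
Each point is a collagen chain gene with at least 100 UMIs, with its intron bases in kilobases on the x axis and the level in SwDI/TKO replicate 1 over the mean level of the other 5 libraries on the y axis, both on log scales. Of the 13 genes with the least intron sequence 1 lies above the dotted line at 1, and of the 13 with the most 9 do, among them Col4a6 (8.44) but not Col11a1 (0.368).

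Collagen chain transcripts were few in these nuclei and took 0.0533% to 0.0735% of the UMIs of a library. Nuclei were named from marker genes that exclude all collagens, and the clustering did not use collagens either. Vessel nuclei, which are the fibroblast-like, mural-like and endothelial-like nuclei together, held 0.79% of all UMIs and 2.73% of the collagen chain UMIs. Named neurons held 46.4% of all UMIs and 43.6% of the collagen chain UMIs, and nuclei of clusters that no marker list named held 42.9% and 48.0%. The summed level of the 44 genes was 2214 CPM in vessel nuclei against 601.6 CPM in named neurons. Fibroblast-like nuclei, 399 of the 486 vessel nuclei, carried that level with 2453 CPM. Mural-like nuclei were at 820.1 CPM and endothelial-like nuclei at 597.4 CPM, beside 809.5 CPM in inhibitory neurons. In fibroblast-like nuclei the sum was 2709, 2383 and 2151 CPM in SwDI/TKO mice and 1816, 2084 and 2116 in SwDI/TWT mice. The SwDI/TKO libraries were all above the SwDI/TWT libraries, a difference that was not tested. The lowest SwDI/TKO and the highest SwDI/TWT library were close, at 2151 and 2116 CPM. SwDI/TKO replicate 2 had only 8 such nuclei, with 15529 UMIs over all genes. The sum also includes Col25a1, which was higher in these nuclei of all SwDI/TKO libraries, as given below. All other glial and macrophage classes with over 50 nuclei lay between 160.7 in border macrophages and 1087 in newly formed oligodendrocytes. Olfactory ensheathing nuclei, a glial class of 49 nuclei described at the end, were at 2110 CPM, near the level of vessel nuclei.

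**Figure D2:**
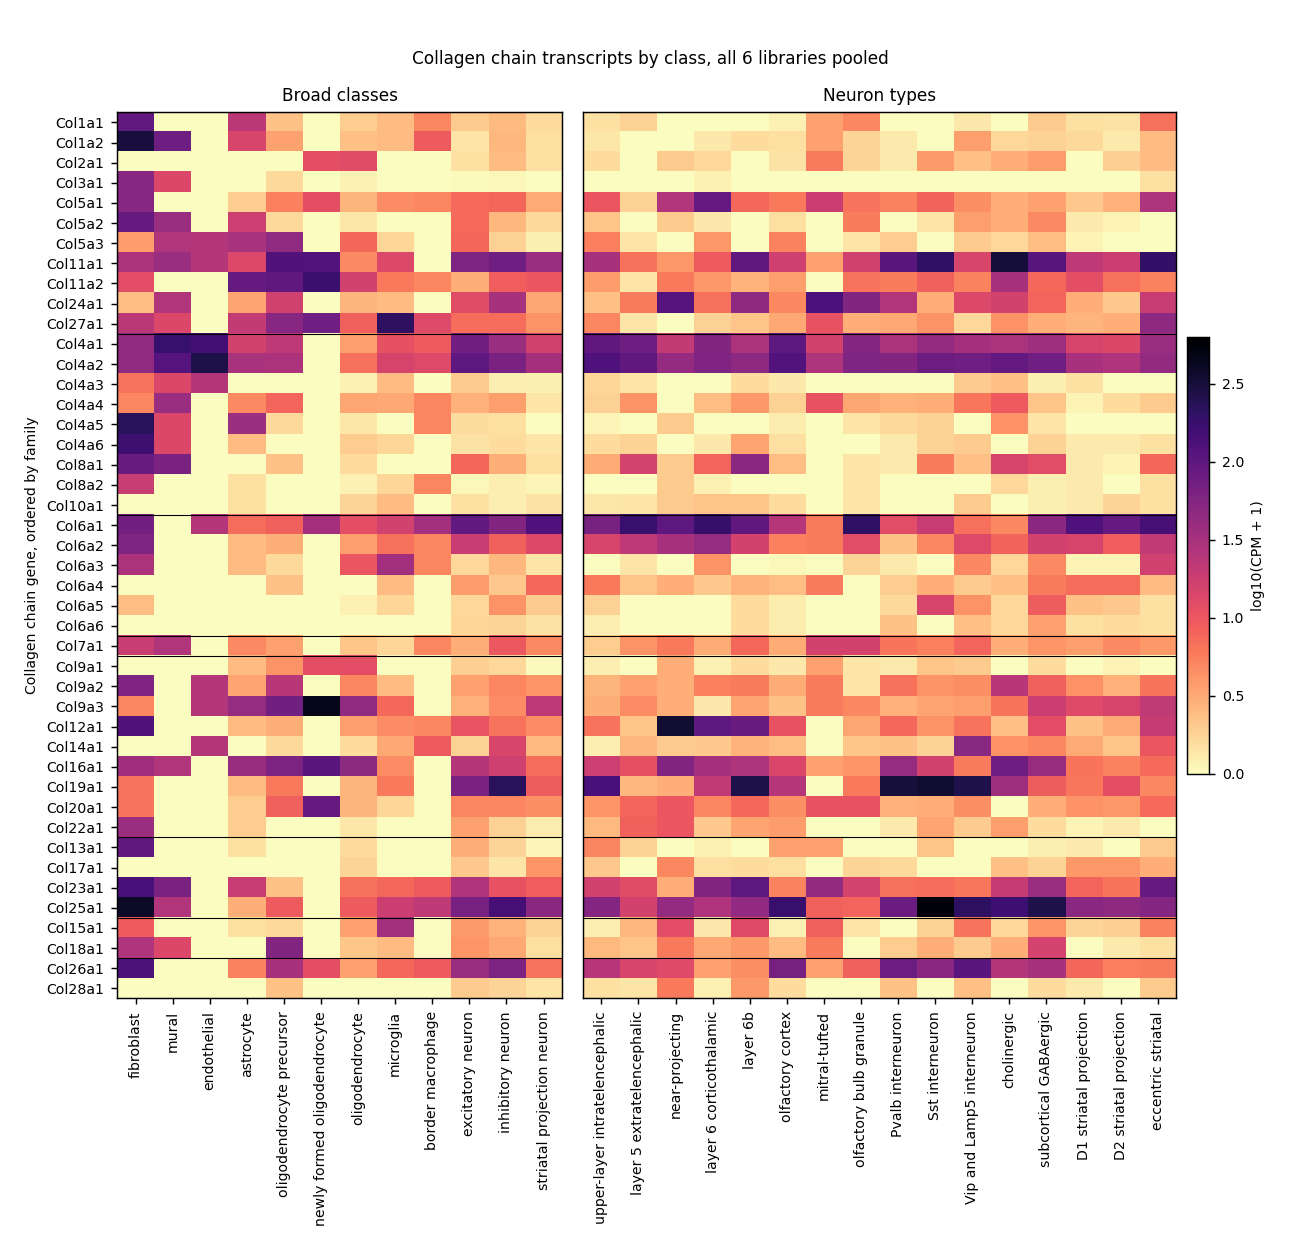
Heat maps of the level of the 44 collagen chain genes (rows, grouped by family) in 12 broad classes and in the neuron types (columns), as log10 of CPM plus 1, with all 6 libraries pooled. Fibroblast-like nuclei show the broadest set of chains, while Col4a1, Col4a2, Col6a1, Col19a1 and Col25a1 are dark across many neuron types.

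Each class was set against the mean of the other classes on UMI sums per library, with the mouse as a block. Only 29 of the 44 members passed the filter on low counts, which works on levels per class and library. Col3a1 passed with 47 UMIs in total, 37 of them in fibroblast-like nuclei, while members with up to 398 did not. A gene can thus enter through the class where it is high. The counts of members called, most of all in fibroblast-like nuclei, are therefore not independent of the filter. The 15 members not tested had 34 to 398 UMIs in total, and 2 of them, Col8a2 and Col22a1, had their highest pooled level in fibroblast-like nuclei. Of the 29, 21 were called higher in fibroblast-like nuclei by edgeR's quasi-likelihood test at a Benjamini-Hochberg adjusted p under 0.05, where 14.4% of all 13106 genes tested were called higher. The median fold change of the 29 was 3.43 on the log2 scale, against -0.11 over all genes. SwDI/TKO replicate 2 had 8 such nuclei and was left out of the fibroblast sums, so that value rests on 5 libraries. Leaving out each library in turn kept 16 of the 21 in every fit. Without SwDI/TKO replicate 1, 5 calls were lost (Col15a1, Col16a1, Col4a6, Col5a1 and Col6a3), 4 of which no longer passed the filter. Of the 21 genes, 12 were also called higher in at least 1 neuron class and 9 were not. Of all genes tested, 36.3% were called higher in excitatory, 32.5% in inhibitory and 35.9% in striatal projection neurons. The same overlap was not counted over all genes, so the 12 and the 9 are not a result particular to collagen chains.

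The chains of type I collagen were higher in fibroblast-like nuclei and were called lower in excitatory, inhibitory and striatal projection neurons. Col1a2, a chain of type I collagen, had a level of 240.4, 257.6 and 427.2 CPM in fibroblast-like nuclei of SwDI/TKO mice and 272.3, 315.8 and 457.3 in those of SwDI/TWT mice. All 6 libraries were high and the genotypes overlapped. Its fold change over the other classes was 7.06 ± 0.23 on the log2 scale (SE, adjusted p = 1.24e-37 by edgeR's quasi-likelihood test). Col1a1, the other type I chain, had a level of 44.3, 580 and 183 CPM in SwDI/TKO mice and 182, 177 and 53.2 in SwDI/TWT mice, with the genotypes overlapping widely. Its fold change over the other classes was 5.53 ± 0.36 (SE, adjusted p = 1.34e-21 by the same test). Col3a1, the type III chain that shares fibrils with type I, had 37 of its 47 UMIs in these nuclei.

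Among the type IV chains, Col4a5 and Col4a6 had their highest pooled levels in fibroblast-like nuclei, where Col4a1 was also called. Col4a5 had a level of 315, 129 and 61.0 CPM in fibroblast-like nuclei of SwDI/TKO mice and 45.4, 63.2 and 117 in those of SwDI/TWT mice. Col4a6 had 254, 0 and 30.5 CPM in SwDI/TKO mice and 68.1, 12.6 and 53.2 in SwDI/TWT mice. In both genes SwDI/TKO replicate 1 was the highest library, and the remaining libraries of the genotypes overlapped. Their fold changes over the other classes were 7.25 ± 0.36 for Col4a5 (SE, adjusted p = 4.28e-25) and 7.49 ± 0.40 for Col4a6 (SE, adjusted p = 1.59e-22), by edgeR's quasi-likelihood test. The Col4a5 call remained without SwDI/TKO replicate 1, and Col4a6 was then not tested. Outside fibroblasts the pair parted: in astrocytes Col4a5 was called higher (log2 fold change 5.23 ± 0.40, SE, adjusted p = 6.02e-17 by that test), at 48.2, 52.5 and 23.0 CPM in SwDI/TKO mice and 26.1, 11.0 and 24.3 in SwDI/TWT mice, while Col4a6 had 3 UMIs there, all in SwDI/TKO replicate 1.

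Among the broad classes, the pooled levels of Col4a1 and Col4a2 were highest in mural-like and endothelial-like nuclei, but these were rare, at 56 and 31 nuclei. Col4a1 had 14 UMIs in mural-like nuclei, a pooled level of 179 CPM (exact Poisson 95% interval 98.1 to 301, which covers counting error only), and 6 UMIs in endothelial-like nuclei, a pooled level of 149 CPM (54.8 to 325). Col4a2 had 9 UMIs in mural-like nuclei, at 115 CPM (52.7 to 219), and 11 in endothelial-like nuclei, at 274 CPM (137 to 490). Among neuron types, Col4a2 reached 126.7 CPM in upper-layer intratelencephalic neurons, within the interval of the mural-like nuclei. Oligodendrocytes held the lowest level of Col4a1 among the large classes, a pooled 2.68 CPM (1.47 to 4.50), and these cells are not known as a source of it. By library, Col4a1 was at 168, 0 and 158 CPM in mural-like nuclei of SwDI/TKO mice and at 0, 168 and 375 in those of SwDI/TWT mice, and each 0 was a library with 3 such nuclei.

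The classes of mural-like and endothelial-like nuclei missed the minimum of 10 nuclei in 3 libraries, so a fit with at least 3 nuclei per library was added after seeing the data. In it, Col4a1 was called higher in mural-like nuclei, with a fold change of 2.67 ± 0.58 on the log2 scale (SE, adjusted p = 0.00072 by edgeR's quasi-likelihood test). Col8a1, a short-chain network collagen of vessels, at 5.15 ± 1.17 and Col1a2 at 4.03 ± 0.93 were the other calls (SE, adjusted p = 0.00152 and 0.00155 by that test), where 3.24% of all genes were called higher. The Col8a1 call rests on 5 UMIs and the Col1a2 call on 6, and the 10 fibroblast markers summed to 730 CPM in these nuclei, with Lum, Bnc2 and Slc47a1 at 0, and their part in the result was not tested. In endothelial-like nuclei no member was called, where 3.90% of all genes were called higher. The fold changes there were 2.11 ± 0.80 for Col4a2 (SE, adjusted p = 0.055, unadjusted p = 0.00995) and 2.01 ± 0.82 for Col4a1 (SE, adjusted p = 0.075, unadjusted p = 0.0157) by that test, and no other member had an unadjusted p under 0.05, as 32.4% of all genes did in either direction.

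Vessel nuclei were few in every library. Their share of the nuclei was 2.71%, 0.283% and 1.54% in SwDI/TKO mice and 0.89%, 1.21% and 1.55% in SwDI/TWT mice. SwDI/TKO replicates 1 and 2 were the highest and the lowest of all 6 libraries. An exact two-sided permutation test over the 20 assignments of the libraries gave p = 0.8 for vessel nuclei, 1 for fibroblast-like, 0.3 for mural-like and 0.6 for endothelial-like nuclei (n = 3 each), and the smallest p this design allows is 0.1.

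Fibroblast-like nuclei fell into 2 clusters that differed in their collagen chains. These are descriptions without a test, since the clusters come from the same nuclei, though no collagen entered the clustering. The cluster led by Mgp and Slc47a1 had 108 nuclei, 35, 5 and 12 in SwDI/TKO mice and 13, 23 and 20 in SwDI/TWT mice. The cluster led by Ptgds, Ranbp3l and Slc6a13 had 291 nuclei, 134, 3 and 35 in SwDI/TKO mice and 22, 39 and 58 in SwDI/TWT mice. All 159 Col4a5 UMIs and all 120 Col4a6 UMIs of fibroblast-like nuclei were in the Ranbp3l cluster, and so were all 42 of Col9a2, all 26 of Col22a1 and all 19 of Col18a1. That cluster also held 69 of 70 UMIs of Col13a1, a transmembrane chain, and 91 of 94 of Col26a1. The Mgp cluster held 254 of the 283 Col25a1 UMIs, at 1260 CPM, 43 of 59 of Col8a1, 12 of 13 of Col8a2, 35 of 51 of Col6a1 and 29 of 43 of Col6a2. Col1a2 was shared, at 228 CPM in the Mgp cluster and 322 in the Ranbp3l cluster.

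**Figure D3:**
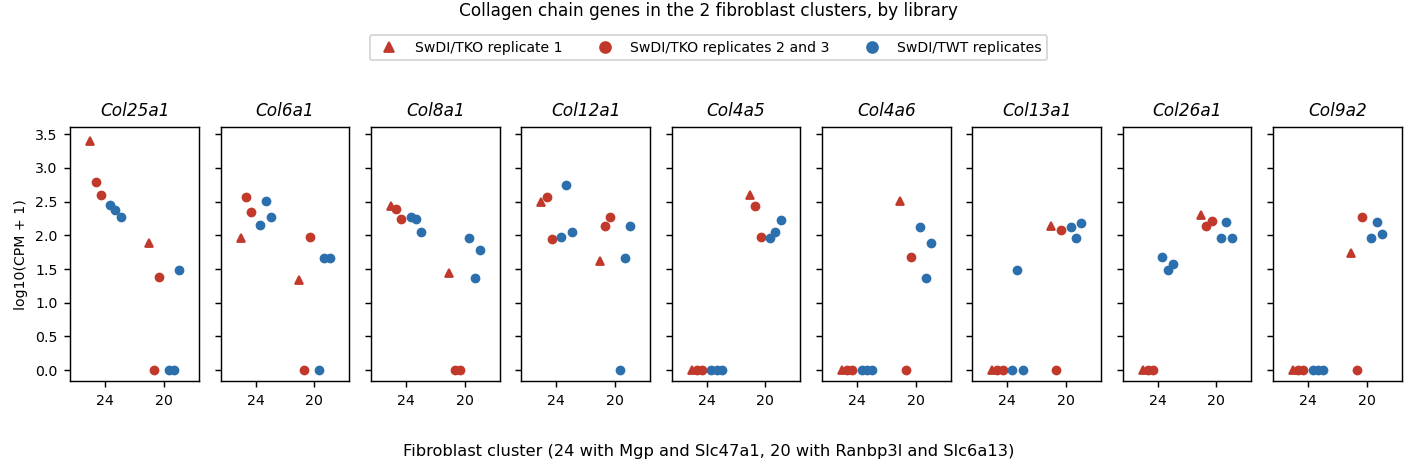
Levels of 9 collagen chain genes, as log10 of CPM plus 1, in the Mgp and Slc47a1 cluster (24, left) and the Ranbp3l and Slc6a13 cluster (20, right) of fibroblast-like nuclei, with SwDI/TKO libraries in red (replicate 1 as a triangle) left of SwDI/TWT libraries in blue. Col4a5, Col4a6 and Col9a2 are at 0 in every library of cluster 24, and Col25a1 is higher there than in cluster 20 in all 6 libraries.

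In excitatory neurons, 17 of the 29 members tested were called higher than in the other classes, where 36.3% of all genes were called higher, and 16 of the 17 were kept in every fit that left out a library. The pair Col4a1 and Col4a2 had the smallest p-values. Col4a1 had a level of 72.9, 62.4 and 71.7 CPM in excitatory neurons of SwDI/TKO mice and 46.2, 63.6 and 95.9 in those of SwDI/TWT mice. It was present in all 6 libraries and the genotypes overlapped. Its fold change over the other classes was 2.47 ± 0.14 on the log2 scale (SE, adjusted p = 1.85e-25 by edgeR's quasi-likelihood test). Col4a2 had 81.2, 111 and 151 CPM in SwDI/TKO mice and 82.4, 113 and 119 in SwDI/TWT mice, again with overlap. Its fold change was 2.39 ± 0.14 (SE, adjusted p = 1.3e-23 by that test). Summed over those nuclei, the 11 endothelial markers reached 27.9 and the 10 mural markers 10.1 CPM, all markers of both lists being detected. The endothelial sum was 3.74 to 54.4 CPM in SwDI/TKO mice and 3.33 to 6.99 CPM in SwDI/TWT mice, so the pooled value rests on the highest SwDI/TKO library. The part of these markers in the result was not tested, and both calls were kept in every fit that left out a library. The Col4a1 level in excitatory neurons overlapped that in fibroblast-like nuclei, where it was 37.3, 64.4 and 45.8 CPM in SwDI/TKO mice and 45.4, 37.9 and 74.4 in SwDI/TWT mice. Col4a1 was called higher in fibroblast-like nuclei too, and Col4a2 was not.

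Inhibitory neurons had 8 of 29 members called higher, where 32.5% of all genes were called higher, and 7 were kept without any 1 library. The leading gene was Col19a1, a FACIT chain that interneurons of the mouse use in synapse formation. It had a level of 437, 102 and 151 CPM in SwDI/TKO mice and 52.1, 128 and 142 in SwDI/TWT mice. SwDI/TKO replicate 1 was the highest by far and the other libraries overlapped. The mix of cells in this class differed between libraries. A cluster led by Vipr2 gave 600 of its 1101 nuclei in SwDI/TKO replicate 2 and 908 of 1418 in SwDI/TWT replicate 1. It gave 18 of 534 in SwDI/TKO replicate 1 and at most 103 in any remaining library. The part of this mix in the levels was not tested. The fold change over the other classes was 6.03 ± 0.21 on the log2 scale (SE, adjusted p = 8.3e-34 by edgeR's quasi-likelihood test). Col25a1 (2.85 ± 0.20, SE), Col26a1 (2.35 ± 0.17) and Col4a2 (1.44 ± 0.16) followed. In striatal projection neurons 7 of 29 were called higher, where 35.9% of all genes were, and 4 of them (Col25a1, Col6a1, Col6a2 and Col9a3) were kept in every fit that left out a library. Col6a1, a chain of the beaded type VI filaments, led them, with 55.3, 161 and 221 CPM in SwDI/TKO mice and 174, 88.6 and 57.8 in SwDI/TWT mice, a range in which the genotypes overlapped. Its fold change was 2.40 ± 0.19 on the log2 scale (SE, adjusted p = 4.14e-18 by that test).

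**Figure D4:**
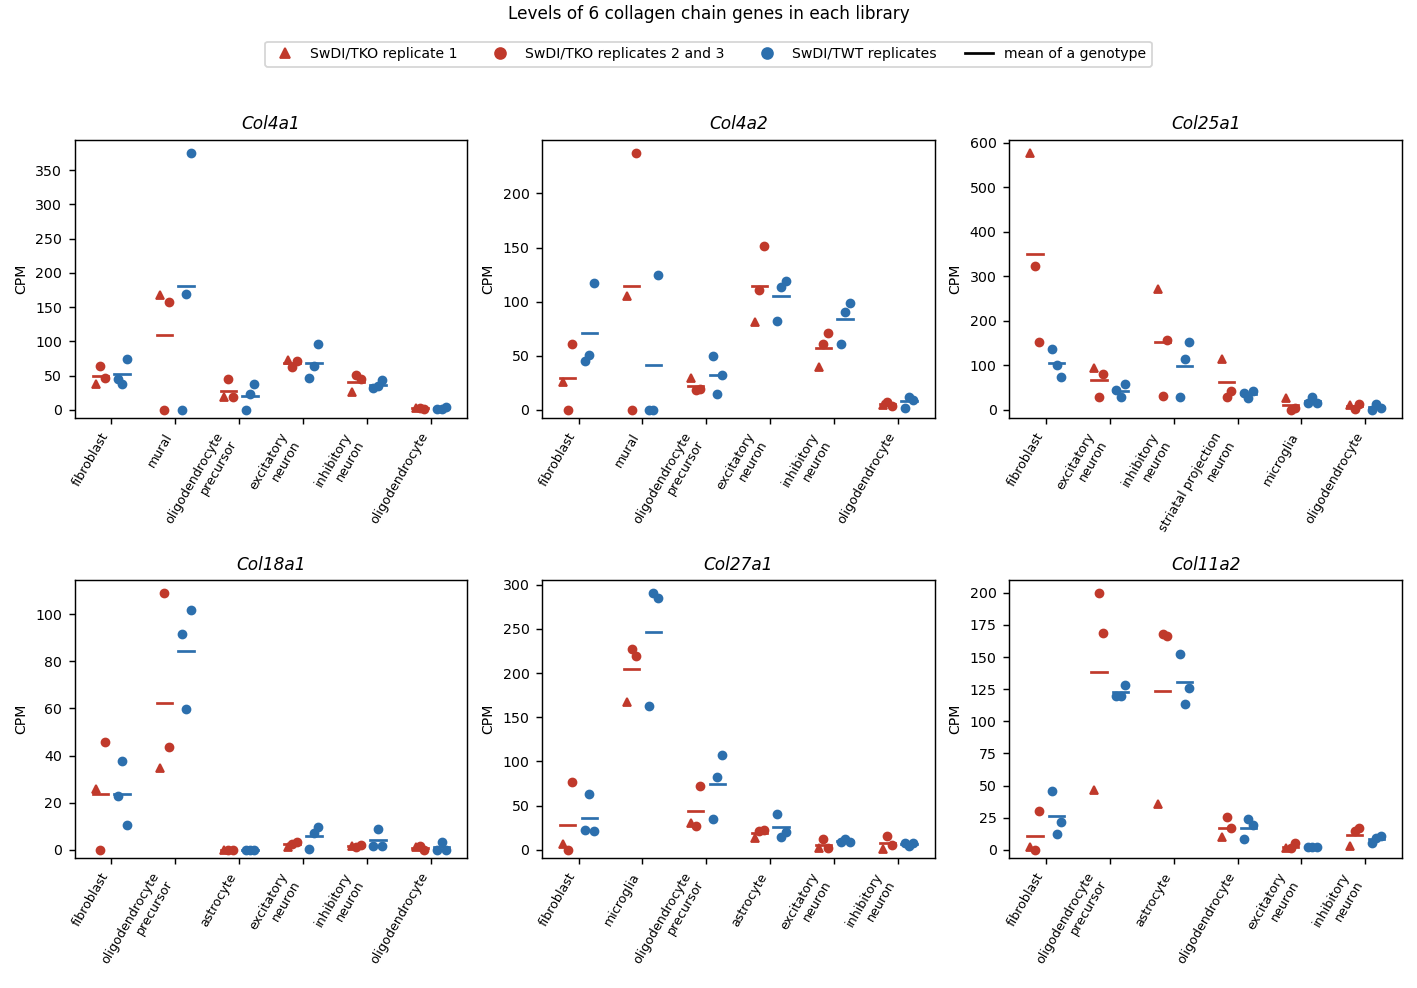
Levels of 6 collagen chain genes in CPM of each class, by library, with SwDI/TKO in red (replicate 1 as a triangle) left of SwDI/TWT in blue and a line at the mean of each genotype. Col4a1 in excitatory neurons lies between 46.2 and 95.9 in all 6 libraries, and the SwDI/TKO libraries lie above all SwDI/TWT libraries for Col25a1 in fibroblast-like nuclei.

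Among neuron types, each set against the mean of the other types, 21 of the 44 members passed the filter on low counts. Of these, 9 were called higher in upper-layer intratelencephalic neurons (21.7% of all 11017 genes tested were called higher in that type), 5 in layer 5 extratelencephalic (15.0%), 8 in near-projecting (8.83%), 8 in layer 6 corticothalamic (18.4%), 9 in layer 6b (13.2%) and 5 in olfactory cortex neurons (21.3%). Among GABAergic and cholinergic types there were 5 in Pvalb interneurons (19.5%), 5 in Sst interneurons (14.3%), 6 in Vip and Lamp5 interneurons (15.5%), 8 in cholinergic neurons (13%), 10 in subcortical GABAergic neurons (13.4%) and 10 in eccentric striatal neurons (12.4%). Counts were 3 in D1 striatal projection neurons (26.2%), 2 in D2 (26.3%), 3 in olfactory bulb granule cells (16.7%) and 2 in mitral and tufted cells (7.57%). Nearly all cells of the last 2 types came from SwDI/TKO replicate 2 and SwDI/TWT replicate 1, with 639 and 1143 of the granule cells. Near-projecting, layer 5 extratelencephalic and olfactory cortex neurons were fitted on 5 libraries and mitral and tufted cells on 3, those with at least 10 nuclei. Without SwDI/TKO replicate 1, 5 of the 8 calls were kept in near-projecting neurons, 5 of 8 in cholinergic, 7 of 10 in eccentric striatal and 6 of 10 in subcortical GABAergic neurons. In layer 6b neurons 7 of 9 were kept, and in each of the other types all or all but 1.

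In cortex, the leading chains differed between the types of the deep layers. Col12a1, a FACIT chain that binds type I fibrils, was the leading gene of near-projecting neurons, at 188, 673 and 159 CPM in SwDI/TKO mice and 431, 464 and 340 in SwDI/TWT mice. The genotypes overlapped. The 159 CPM of SwDI/TKO replicate 3 are 3 UMIs in 6 nuclei, and that library was left out of the fit. Over the other 5 libraries its fold change over the other types was 5.85 ± 0.20 on the log2 scale (SE, adjusted p = 5.01e-44 by edgeR's quasi-likelihood test). Col12a1 was also called in layer 6 corticothalamic (4.19 ± 0.18, SE) and layer 6b neurons (3.93 ± 0.26). Col5a1, a fibrillar chain that limits fibril diameter, led in layer 6 corticothalamic neurons, at 45.8, 175 and 288 CPM in SwDI/TKO mice and 107, 138 and 136 in SwDI/TWT mice. SwDI/TKO replicate 1 was the lowest library and replicate 3 the highest. The fold change was 4.42 ± 0.16 (SE, adjusted p = 5.63e-43 by that test).

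Other cortical types had other chains in front. In layer 6b neurons Col19a1 had the smallest p, ahead of Col12a1, at a log2 fold change of 3.82 ± 0.20 (SE, adjusted p = 7.45e-32 by edgeR's quasi-likelihood test). Col8a1, next by p after Col12a1, was at 4.30 ± 0.37 there (SE, adjusted p = 4.08e-18 by that test) and was not tested without SwDI/TKO replicate 1. Upper-layer intratelencephalic neurons were led by Col19a1 (2.50 ± 0.18, SE), Col4a2 (1.43 ± 0.11) and Col4a1 (1.57 ± 0.13), and all 9 of their calls were kept in every fit that left out a library. Col4a1 (1.66 ± 0.13, SE) and Col4a2 (1.27 ± 0.12) were also called in olfactory cortex neurons behind Col26a1 (2.53 ± 0.15), and both in layer 5 extratelencephalic neurons at 1.31 ± 0.19 and 0.91 ± 0.16 behind Col6a1 at 2.40 ± 0.23. Col24a1, a fibrillar chain, was called in near-projecting neurons (3.64 ± 0.31, SE), mitral and tufted cells (3.39 ± 0.43) and granule cells of the olfactory bulb (2.18 ± 0.30). Col23a1, a transmembrane chain, was called in mitral and tufted cells at 2.05 ± 0.68, a call that was lost without SwDI/TWT replicate 1 or 3.

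Col19a1 had the smallest p in all 3 interneuron types, followed by Col25a1 in Sst interneurons and by Col26a1 in Pvalb interneurons and in Vip and Lamp5 interneurons. Col25a1 was called in the Sst and the Vip and Lamp5 types and not in Pvalb interneurons. It was highest among the named types in Sst interneurons, at 701, 221 and 519 CPM in SwDI/TKO mice and 207, 433 and 569 in SwDI/TWT mice. The genotypes overlapped over nearly their whole range. The fold change over the other types was 3.42 ± 0.17 on the log2 scale (SE, adjusted p = 4.86e-34 by edgeR's quasi-likelihood test). Col19a1 was called in all 3 interneuron types, at 4.27 ± 0.16 (SE) in Pvalb, 4.34 ± 0.17 in Sst and 3.85 ± 0.18 in Vip and Lamp5 interneurons. In Pvalb interneurons its level was 490, 226 and 188 CPM in SwDI/TKO mice and 129, 154 and 206 in SwDI/TWT mice, so that SwDI/TKO replicates 1 and 2 were above all SwDI/TWT libraries and replicate 3 was not.

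Other chains led in single interneuron or basal forebrain types. Col14a1, a FACIT chain, was called in Vip and Lamp5 interneurons at 4.91 ± 0.28 on the log2 scale (SE, adjusted p = 1.31e-28 by edgeR's quasi-likelihood test), from 49.5, 13.9 and 53.3 CPM in SwDI/TKO mice and 25.9, 50.3 and 73.5 in SwDI/TWT mice. Both genotypes spanned a low and a high library. Of the other types, it was called in eccentric striatal neurons alone. Col11a1, a minor fibrillar chain best known from cartilage, led in cholinergic neurons, at 115, 369 and 695 CPM in SwDI/TKO mice and 466, 178 and 367 in SwDI/TWT mice, and its fold change was 3.43 ± 0.26 (SE, adjusted p = 8.09e-21 by that test). Col27a1, a fibrillar chain, led in eccentric striatal neurons at 4.67 ± 0.34 (SE). Col18a1 was called in subcortical GABAergic neurons (3.40 ± 0.33, SE), and was not tested there without SwDI/TKO replicate 1, the lowest library, at 3.20, 23.8 and 23.3 CPM in SwDI/TKO mice and 31.4, 31.7 and 28.2 in SwDI/TWT mice. Every SwDI/TKO library was below every SwDI/TWT library. The level of SwDI/TKO replicate 2 comes from 18 nuclei with 41948 UMIs over all genes and so rests on very few molecules of Col18a1. In the genotype comparison of this type, which was made only with a minimum of 10 nuclei because SwDI/TKO replicate 2 had 18, the fold change was -1.44 ± 0.63 (SE, unadjusted p = 0.0464, adjusted p = 0.525 by edgeR's quasi-likelihood test). Of all 8584 genes tested there, 9.41% had an unadjusted p under 0.05.

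Among glia, oligodendrocyte precursors had 10 of 29 members called higher, where 18.5% of all genes were called higher, and 9 were kept in every fit that left out a library. Col11a2, a minor fibrillar chain, had 46.2, 200 and 169 CPM in precursors of SwDI/TKO mice and 120, 120 and 128 in those of SwDI/TWT mice, with SwDI/TKO replicate 1 the lowest, and its fold change was 3.45 ± 0.21 on the log2 scale (SE, adjusted p = 6.15e-23 by edgeR's quasi-likelihood test). Col18a1 had 34.6, 109 and 43.5 CPM there in SwDI/TKO mice and 91.4, 59.9 and 102 in SwDI/TWT mice. The genotypes overlapped, and the fold change over the other classes was 5.66 ± 0.41 (SE, adjusted p = 8.11e-18 by that test). Col18a1 was also called in fibroblast-like nuclei and in no other broad class. The fibrillar chain Col5a3 (4.57 ± 0.35, SE) and the FACIT chain Col9a3 (3.66 ± 0.37) were the next calls in precursors.

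Astrocytes had 9 of 29 members called higher, where 22.5% of all genes were called higher, and 8 were kept without SwDI/TKO replicate 1, which lost Col23a1. Col11a2 led them too, at 35.4, 168 and 167 CPM in SwDI/TKO mice and 153, 114 and 126 in SwDI/TWT mice, with SwDI/TKO replicate 1 apart from the rest, and a fold change of 3.68 ± 0.20 on the log2 scale (SE, adjusted p = 5.89e-26 by edgeR's quasi-likelihood test). Col5a3 (4.19 ± 0.37, SE) and Col1a1 (3.62 ± 0.36, SE) were called as well. Col1a1 was at 11.8, 31.5 and 34.5 CPM in astrocytes of SwDI/TKO mice and 33.5, 40.3 and 20.3 in those of SwDI/TWT mice, so it was present in all 6 libraries. The 10 fibroblast markers summed to 256 CPM in astrocytes, 178 to 321 in SwDI/TKO mice and 114 to 313 in SwDI/TWT mice, with Lum at 0, and their part in the Col1a1 call was not tested. In fibroblast-like nuclei the same sum was 5575.

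Microglia had the shortest list among the classes with a call. Of the 29 members 3 were called higher, where 25.6% of all genes were called higher. Col27a1 had a level of 167, 228 and 219 CPM in microglia of SwDI/TKO mice and 163, 290 and 285 in those of SwDI/TWT mice. The genotypes overlapped, and the fold change over the other classes was 3.99 ± 0.22 on the log2 scale (SE, adjusted p = 1.14e-25 by edgeR's quasi-likelihood test). Col15a1, a multiplexin related to Col18a1 (4.43 ± 0.41, SE), and Col6a3, the large type VI chain (3.67 ± 0.42, SE), were not tested without SwDI/TKO replicate 1. In oligodendrocytes 5 of 29 were called higher, where 29.4% of all genes were, and the leading genes were Col9a3 (3.13 ± 0.32, SE) and the FACIT chain Col16a1 (2.41 ± 0.26). Border macrophages had 0 of 29 called higher by edgeR's quasi-likelihood test, where 10.7% of all genes were called higher, and Col11a1 and Col16a1 were called lower there. Over the 29 members 7 had an unadjusted p under 0.05 in that class, in either direction, where 39.1% of all genes did.

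Newly formed oligodendrocytes were 52 nuclei, 29 of them from SwDI/TKO replicate 2, and entered only the fit with at least 3 nuclei per library. Col9a3, Col16a1 and Col11a2 were called higher there, where 4.26% of all genes were called higher. Col9a3 had 43 UMIs in these nuclei, 8, 23 and 6 in SwDI/TKO mice and 3, 2 and 1 in SwDI/TWT mice, a pooled level of 458 CPM. That level was present in every library, and it stood beside 72.4 CPM in precursors.

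The enzymes, receptors and partners of collagens were read from 5 lists, in the same class fits. In fibroblast-like nuclei, where 14.4% of all genes were called higher, 5 of the 14 tested genes of collagen folding and modification were higher and 2 lower, with Serpinh1, the collagen chaperone, at 4.61 and the lysyl hydroxylase Plod2 at 4.15 on the log2 scale (adjusted p = 9.5e-16 and 4.07e-11 by edgeR's quasi-likelihood test). For processing and crosslinking 4 of 7 were higher, led by the procollagen C-proteinase enhancer Pcolce at 6.12, and of the collagen receptors 5 of 7 were higher and 1 lower, led by Ddr2 at 5.74 and Mrc2 at 5.84. Of the basement membrane partners 11 of 15 were higher and 1 lower, with the laminin chains Lama1 at 7.79 and Lama4 at 5.48, and the list's median was 4.15 against -0.11 over all genes. The metalloproteases and their inhibitors had 3 of 10 higher and 1 lower, with the inhibitor Timp3 at 4.38. Fewer list genes passed the filter without SwDI/TKO replicate 1. Then 2 of 13 folding and modification genes and 2 of 5 processing genes were called higher, against 5 of 14 and 4 of 7 with all libraries. The 14.4% belongs to the fit with all libraries, and the share of all genes without that library is not given here. The higher count of folding and modification genes thus rests in part on that library.

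Excitatory neurons, where 36.3% of all genes were called higher, had 4 of 14 folding and modification genes higher and 6 lower. Serpinh1 fell by 3.20 and the lysyl hydroxylase Plod1 fell by 3.40 on the log2 scale (adjusted p = 3.54e-06 and 4e-19 by edgeR's quasi-likelihood test). Their basement membrane partners were 4 higher and 2 lower of 15, with the peroxidase Pxdn, which crosslinks type IV collagen, at 1.81, and the processing genes 5 higher and 2 lower of 7, with the procollagen proteinases Bmp1 at 1.59 and Adamts3 at 2.16. In striatal projection neurons Adamts3 was at 5.28. Astrocytes, where 22.5% of all genes were called higher, had 7 of 14 folding genes higher and 1 lower, with Serpinh1 at 3.49, and 7 of 15 basement membrane partners higher and 1 lower, with Lama2 at 5.42. Microglia, where 25.6% of all genes were called higher, had 7 of 14 folding genes higher and none lower, with the prolyl hydroxylase P3h2 at 4.37, and 1 of 15 partners higher and 4 lower, with Sparc, a collagen-binding matricellular protein, at 4.62, and the inhibitory collagen receptor Lair1 at 7.31. Oligodendrocyte precursors, where 18.5% of all genes were called higher, had 6 of 10 metalloproteases and inhibitors higher and 1 lower, led by Mmp16 at 2.93 and Mmp15 at 5.69. Of the genes still tested without SwDI/TKO replicate 1, 3 of 5 processing genes were higher in excitatory neurons and 4 of 10 basement membrane partners in astrocytes. The shares of all genes above belong to the fits with all libraries, and those without that library are not given here.

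Between genotypes no collagen chain was called. The comparison of SwDI/TKO over SwDI/TWT was made in 17 sets of nuclei (15 classes or types with at least 20 nuclei in every library, all vessel nuclei together and all nuclei together). Over these, 162 tests of members gave 0 calls by edgeR's quasi-likelihood test, where 0% of all genes were called in any of the 17 sets, and 6 tests with an unadjusted p under 0.05. Over all genes 6980 of 128180 tests, or 5.45%, had an unadjusted p under 0.05. The smallest adjusted p of a member was 0.594. No member was called in any of the 192 fits over all settings, which include DESeq2's test and the fits without SwDI/TKO replicate 1.

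Over all nuclei, where fewer cells of a type and less RNA per cell cannot be told apart, neither of the 2 main vascular chains was called. Col4a1 was at 54.4, 43.0 and 45.1 CPM in SwDI/TKO mice and 31.0, 41.9 and 55.9 in SwDI/TWT mice. Col4a2 was at 64.4, 63.8 and 78.5 CPM in SwDI/TKO mice and 58.3, 80.7 and 86.2 in SwDI/TWT mice. The genotypes overlapped in both genes. The fold changes were 0.23 ± 0.36 for Col4a1 and -0.08 ± 0.27 for Col4a2 on the log2 scale (SE, adjusted p = 0.873 and 0.956 by edgeR's quasi-likelihood test). Col4a1 ranged from -0.58 to 0.56 over its 11 comparisons and was above 0 in 10, but in 4 of 11 without SwDI/TKO replicate 1. Col4a2 ranged from -0.63 to 0.47 over 12 comparisons and was above 0 in 6, and in 5 without that library. In excitatory neurons the mean level of Col4a1 was 69.0 ± 5.77 CPM in SwDI/TKO mice and 68.6 ± 25.2 in SwDI/TWT mice (SD, n = 3 each).

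Apart from the subcortical GABAergic neurons given above, Col18a1 was tested between genotypes in 2 sets of nuclei and was below 0 in both. Over all nuclei it was at 3.89, 3.12 and 5.37 CPM in SwDI/TKO mice and 3.66, 13.6 and 9.29 in SwDI/TWT mice. SwDI/TWT replicates 2 and 3 were above all SwDI/TKO libraries and replicate 1 was among them. The fold change was -1.04 ± 0.52 on the log2 scale (SE, unadjusted p = 0.0822, adjusted p = 0.699 by edgeR's quasi-likelihood test). Without SwDI/TKO replicate 1 it was tested in 3 sets and was below 0 in each, with a smallest unadjusted p of 0.0499 (smallest adjusted p 0.996 by that test). The other set was oligodendrocyte precursors, with a mean level of 62.3 ± 40.6 CPM in SwDI/TKO mice and 84.3 ± 21.8 in SwDI/TWT mice (SD, n = 3 each).

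Of the 4 members tested over all vessel nuclei, only Col25a1 had an unadjusted p under 0.05 between genotypes by edgeR's quasi-likelihood test. In fibroblast-like nuclei it had 247, 5 and 10 UMIs in SwDI/TKO mice and 6, 8 and 7 in SwDI/TWT mice, or levels of 576, 322 and 153 CPM in SwDI/TKO mice and 136, 101 and 74.4 in SwDI/TWT mice. All SwDI/TKO libraries were above all SwDI/TWT libraries, though replicates 2 and 3 rest on 5 and 10 UMIs. In the Mgp cluster the level was 2515, 615 and 396 CPM in SwDI/TKO mice and 278, 235 and 184 in SwDI/TWT mice, and in the Ranbp3l cluster 76.3, 0 and 23.4 in SwDI/TKO mice and 0, 0 and 29.9 in SwDI/TWT mice. The order of the genotypes was thus seen in the first cluster and not in the second. Over all vessel nuclei, where 4 members were tested, the Col25a1 fold change was 1.98 ± 0.61 on the log2 scale (SE, unadjusted p = 0.00785, adjusted p = 0.75 by edgeR's quasi-likelihood test), and 5.85% of all 1281 genes tested there had an unadjusted p under 0.05. Without SwDI/TKO replicate 1 the gene did not pass the filter and was not tested, and the mean vessel level of SwDI/TKO replicates 2 and 3 was 192 CPM against 87.6 ± 18.8 in SwDI/TWT mice (SD, n = 3). Over its 12 comparisons Col25a1 was above 0 in all 12 with all libraries and in 5 of 10, from -0.38 to 0.44, without SwDI/TKO replicate 1.

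The other 5 tests with an unadjusted p under 0.05 were in neuron types, where the share of all genes below that p was 5.37% in upper-layer intratelencephalic neurons, 8.18% in layer 6 corticothalamic neurons, 4.96% in eccentric striatal neurons and 7.90% in Vip and Lamp5 interneurons. In upper-layer intratelencephalic neurons Col26a1 was at 15.3, 19.7 and 14.0 CPM in SwDI/TKO mice and 41.1, 46.6 and 51.8 in SwDI/TWT mice. The genotypes were apart with little spread within either. The fold change was -1.38 ± 0.34 on the log2 scale (SE, unadjusted p = 0.00343, adjusted p = 0.721 by edgeR's quasi-likelihood test). Col11a1 was at 18.7, 24.6 and 8.00 CPM in the same neurons of SwDI/TKO mice and 78.8, 67.4 and 30.7 in those of SwDI/TWT mice, again apart, with a fold change of -1.58 ± 0.51 (SE, unadjusted p = 0.0135, adjusted p = 0.721 by that test). Without SwDI/TKO replicate 1 the fold changes were -1.52 ± 0.35 for Col26a1 and -1.85 ± 0.50 for Col11a1 (SE, adjusted p = 0.999 for both by that test). The remaining 3 overlapped between genotypes: Col11a1 in layer 6 corticothalamic neurons (-1.79 ± 0.78, SE, unadjusted p = 0.0466), Col27a1 in eccentric striatal neurons (-1.23 ± 0.51, SE, unadjusted p = 0.0399) and Col19a1 in Vip and Lamp5 interneurons (1.14 ± 0.50, SE, unadjusted p = 0.0495), with adjusted p from 0.594 to 0.826 by edgeR's quasi-likelihood test.

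**Figure D5:**
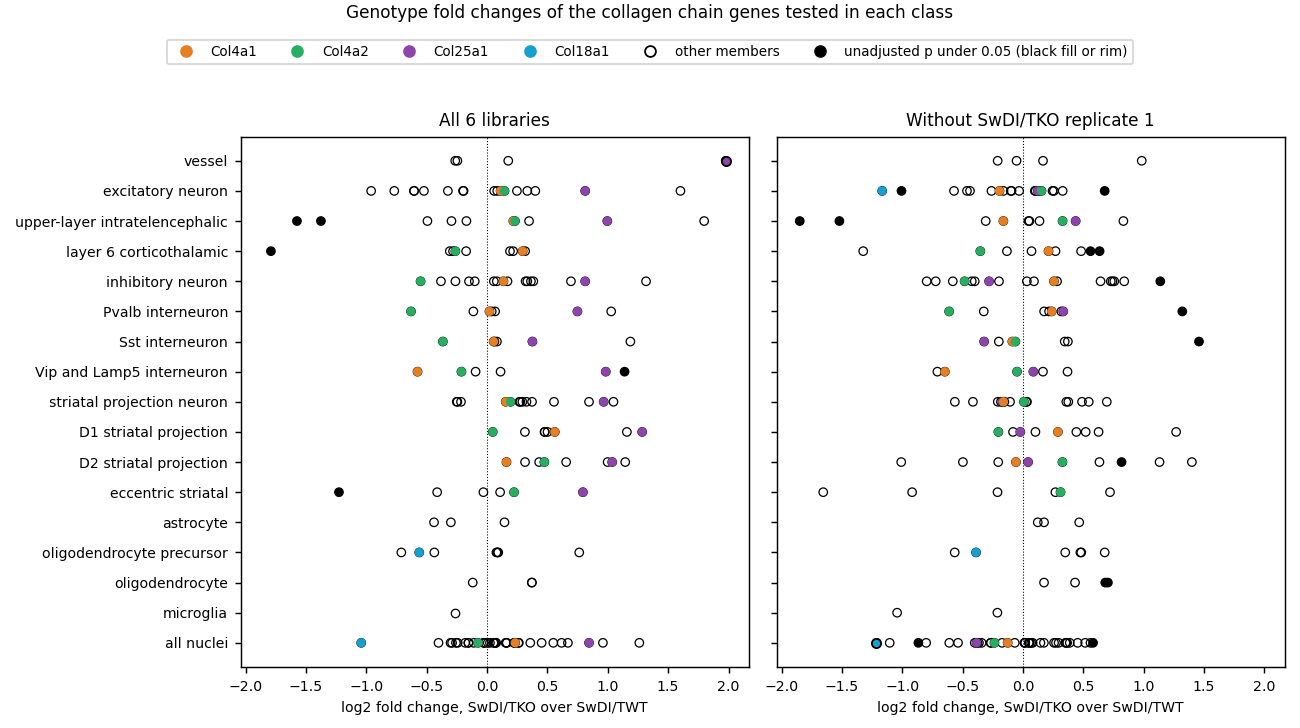
Log2 fold changes of SwDI/TKO over SwDI/TWT for each collagen chain gene tested in each set of nuclei, with all 6 libraries (left) and without SwDI/TKO replicate 1 (right), where black fill or a black rim marks an unadjusted p under 0.05. With all libraries Col25a1 (purple) lies right of 0 in all 12 of its comparisons, and without replicate 1 in 5 of 10.

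The genotype fold changes of inhibitory and excitatory neurons were compared by an interaction term. The mix of cells within inhibitory neurons differed between libraries, and its part in this comparison was not tested. Of 13908 genes tested, 25 of them members, 0 were called by edgeR's quasi-likelihood test, and 2 members had an unadjusted p under 0.05, where 1.68% of all genes did. In inhibitory minus excitatory neurons, the genotype fold change of Col4a2 differed by -0.68 ± 0.18 on the log2 scale (SE, unadjusted p = 0.0033) and Col26a1 by 0.74 ± 0.28 (SE, unadjusted p = 0.0253), both with an adjusted p of 1 by that test. Of the list genes, 0 of 399 tests of genotype or of this interaction were called by edgeR's quasi-likelihood test, and 25 had an unadjusted p under 0.05. Over all genes 5.45% of the genotype tests did.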

How the data were processed

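Nuclei of the frontal lobe of 6 mice were profiled with droplet-based 3′ RNA-seq. The deposited matrices hold UMI counts per gene and barcode, not normalized. Per the submitters' processing notes and the file headers the counts were made with Cell Ranger (7.0.0 for SwDI/TKO replicate 1 and 6.1.2 for the other 5 libraries) on mm10, and Seurat was also named. Whether reads in introns were counted was not given in the sources used here.

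A barcode was kept if it had at least 200 genes and if at most 5% of its UMIs were mitochondrial. Of the 34281 left, Scrublet (scanpy 1.11.5, expected rate 6%) predicted 1273 as doublets, which were removed. Nuclei were clustered on 2000 variable genes and 30 principal components without collagen or mitochondrial genes, with 4 neighbours per library and Leiden (leidenalg 0.10.2) at resolution 2, and clusters were named by at least 3 markers raised by 0.8 on the log2 scale with a pseudocount of 20 CPM. Neuron types come from a second clustering, with the same settings, of named neurons and unnamed nuclei together. A name means that a cluster is like that cell type. Names were rebuilt here and may differ from those of the submitters. A level in CPM is the share of a gene in the UMIs of a class and library, scaled to 1000000. The summed UMI counts of each class and library were tested with edgeR 4.0.16 (quasi-likelihood test, TMM, filterByExpr, two-sided) with Benjamini-Hochberg adjustment over all genes and a threshold of 0.05. Classes were compared with the mouse as a block, in libraries with at least 10 nuclei and classes with at least 3 such libraries, and genotypes where all 6 libraries had at least 20 nuclei of a class. Alternatives were DESeq2 1.42.0 size factors or its test, no filter, doublets kept, a marker gate per nucleus, other minimums of nuclei, and each library left out. The fits were tested on simulated counts. Exact Poisson intervals are at 95% and cover counting error only.

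The members and lists were chosen with earlier results of these data known. Named genes are Col4a1, Col4a2, Col18a1 and Col25a1, up to 4 members with the smallest p among those called higher in a class or type, members called between genotypes, and up to 3 genes of a partner list. Col3a1, Col8a2, Col22a1, the genes of the fibroblast clusters, those of the fits with fewer nuclei and those with an unadjusted p under 0.05 between genotypes were named after their values were seen. RefSeq promoters (GRCm38.p6) were found for 35 of 44 members. No mouse number in the labels pairs the libraries.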

Additional observations from a re-analysis of the deposited data

How the results depend on the processing

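The counts of members called were within 1.5 times the main count in 379 of 398 alternative values. These values also hold the genotype and interaction fits. In the 192 genotype fits, main fits included, 0 had a member called, and a count that stayed at 0 was taken as unchanged. The share of unchanged values is therefore no measure for the classes and types alone. The counts of members called higher in a class or type moved as follows. Without a filter on low counts they were 15 in inhibitory neurons, 11 in striatal projection neurons, 6 in D1 and 4 in D2 striatal projection neurons, 11 in Vip and Lamp5 interneurons, 7 in olfactory bulb granule cells, 8 in olfactory cortex neurons, 20 in subcortical GABAergic neurons and 14 in upper-layer intratelencephalic neurons, where more members were tested. With doublets kept the count in striatal projection neurons was 4, and with at least 3 nuclei per library that in microglia was 1, an alternative chosen after seeing the data. Leaving out each library gave 1 to 3 in microglia, 3 to 5 in oligodendrocytes, 1 to 3 in D2 neurons, 5 to 7 in cholinergic neurons, 1 to 2 in mitral and tufted cells and 5 to 8 in near-projecting neurons. The share of all genes called in these alternative fits is not given here, so the changes cannot be read as particular to collagen chains. The cause was not tested. Of single genes, 874 of 881 alternative values kept their direction and call. Fits in which a gene no longer passed the filter are not among the 881, as for Col4a6 in fibroblast-like nuclei without SwDI/TKO replicate 1. Genotype tests that stayed uncalled in the same direction were taken as kept. This share is therefore no measure of how stable the calls are. Col6a2 in striatal projection neurons was at 0.55 with the marker gate, and Col23a1 in mitral and tufted cells at 0.20 and 1.96 without SwDI/TWT replicate 1 or 3, all 3 no longer called. Over all nuclei, leaving out each library gave a genotype fold change of -0.38 to 1.3 for Col25a1 and -0.13 to 0.51 for Col4a1, both below 0 without SwDI/TKO replicate 1. For Col4a2 the range was -0.25 to 0.07, above 0 without SwDI/TKO replicate 2 (0.05) or SwDI/TWT replicate 3 (0.07). None of these was called. Mural-like and endothelial-like nuclei, with 56 and 31 nuclei, limit every value of those classes. No paired analysis was possible because the labels give no number that ties a SwDI/TKO mouse to a SwDI/TWT mouse.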

Other observations

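Some of the highest levels of collagen chains were in clusters that no list of neuron type markers named, which entered no comparison of neuron types. Their nuclei were part of the sums over all nuclei. Those of the first cluster below lay most often in the class of excitatory neurons and were part of its sums too. Col11a1 reached 408, 1230 and 1820 CPM in SwDI/TKO mice and 1934, 1583 and 1171 in SwDI/TWT mice in a cluster of 168 nuclei led by Nr4a2, Gnb4 and Oprk1. In a cluster of 222 nuclei led by Rreb1, Isl1 and Drd3 its level was 555 and 1534 CPM in SwDI/TKO replicates 1 and 3, and 1164 and 1237 in SwDI/TWT replicates 1 and 3, and the other 2 libraries had no such nuclei. Col26a1 was at 228 and 144 CPM in SwDI/TKO replicates 1 and 3 and at 165, 300 and 240 in SwDI/TWT mice in a cluster of 746 nuclei led by Ntng1. A cluster of 1082 nuclei led by Rmst and Slc17a6 held 263 of the 622 UMIs of Col18a1, at 28.0, 0 and 60.1 CPM in SwDI/TKO mice and 0, 152 and 99.8 in SwDI/TWT mice, and it had only 3 nuclei in SwDI/TKO replicate 2 and 21 in SwDI/TWT replicate 1.

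Olfactory ensheathing nuclei, glia that wrap olfactory axons, were found in SwDI/TKO replicate 2 (18 nuclei) and SwDI/TWT replicate 1 (31 nuclei) and in no other library. Their 44 collagen chains summed to 2131 CPM in the first and 2093 in the second. The pooled level of Col11a1 was 591 CPM (exact Poisson 95% interval 412 to 822), that of Col27a1 338 (206 to 521), that of Col23a1 287 (167 to 459) and that of Col16a1 253 (142 to 418).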
